A study of Drosophila melanogaster with 6 samples.

Results

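The genes examined here make or remove reactive oxygen species, or control the enzymes that do, in the lymph gland of Drosophila melanogaster. The group has 10 members, chosen by name, with earlier results of these data known. They are the oxidases Duox and Nox, the superoxide dismutases Sod1, Sod2 and Sod3, the catalase Cat, the peroxidase PHGPx, the thioredoxin reductase Trxr1, and the regulators cnc and Keap1. All 10 had a row among the 17807 genes of each table. PHGPx was found through its RefSeq synonym and is listed as Gtpx in the annotation.

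Polyadenylated RNA from whole lymph glands of larvae in the third instar was sequenced in 6 libraries. All larvae were labelled wild-type, from stock BL-30140 crossed to w1118, and were grown on semi-defined medium. The libraries came from 2 experimenters with 3 libraries each, called set A and set B, and the labels name no other difference. Nothing in the labels says whether a library held glands from separate cultures, so the spread between libraries may be partly technical.

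Superoxide arises in mitochondrial respiration and from NADPH oxidases, and superoxide dismutases turn it into hydrogen peroxide. Catalase, peroxiredoxins and glutathione-type peroxidases then remove the peroxide, and thioredoxin reductase recharges the thioredoxins that these peroxidases draw on in flies. In the lymph gland, progenitors are known to hold more reactive oxygen than mature blood cells, and to use it as a signal for differentiation through the JNK kinase and FoxO. The transcription factor encoded by cnc, the fly relative of mammalian Nrf2, switches on scavenger and detoxification genes and is held back by Keap1.

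Depth lay between 18689689 and 26003822 expected counts per library. The labelled tissue was checked with marker genes. All 8 plasmatocyte markers, all 5 crystal cell markers and all 5 prohemocyte markers reached at least 1 TPM (transcript abundance corrected for length and scaled to the same total in each library) in every library. For the niche, the posterior signalling center, 4 of 5 markers did. So did 7 of 8 ring gland markers, all 6 muscle markers and 41.4% of all listed genes, so this level alone does not single out the gland. Tissues that lie close to the gland also gave signal. The summed level of 8 ring gland markers ranged from 781 to 2606 TPM in set A and from 1281 to 2426 TPM in set B, and spo was the single marker of that list at 0 in all 6. Salivary gland markers summed to 5332 TPM in set B replicate 2 and to at most 83.1 TPM elsewhere. Fat body markers summed to 721 TPM in set A replicate 3 and to at most 22.5 TPM elsewhere. Muscle markers reached 1549 TPM in set B replicate 3 against at most 684 TPM elsewhere, and neural markers 25.0 TPM in set B replicate 1 against at most 4.78 TPM. Their part in the values below was not tested.

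Sod1, Sod2, Cat, PHGPx, Trxr1 and cnc were abundant, Sod3 and Keap1 were low, and the oxidases Duox and Nox were lowest. Of the 10 genes, 8 had at least 1 TPM in all 6 libraries, a level that 41.4% of all listed genes reached. Duox reached it in 2 libraries and Nox in none. Together the 10 genes held 1240 ± 161 TPM (SD, n = 6, as for all levels unless stated). Sod1 alone made up 43.1% ± 0.747 of that sum. In whole organs, fewer cells of a type and less RNA per cell cannot be told apart.

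**Figure D1:**
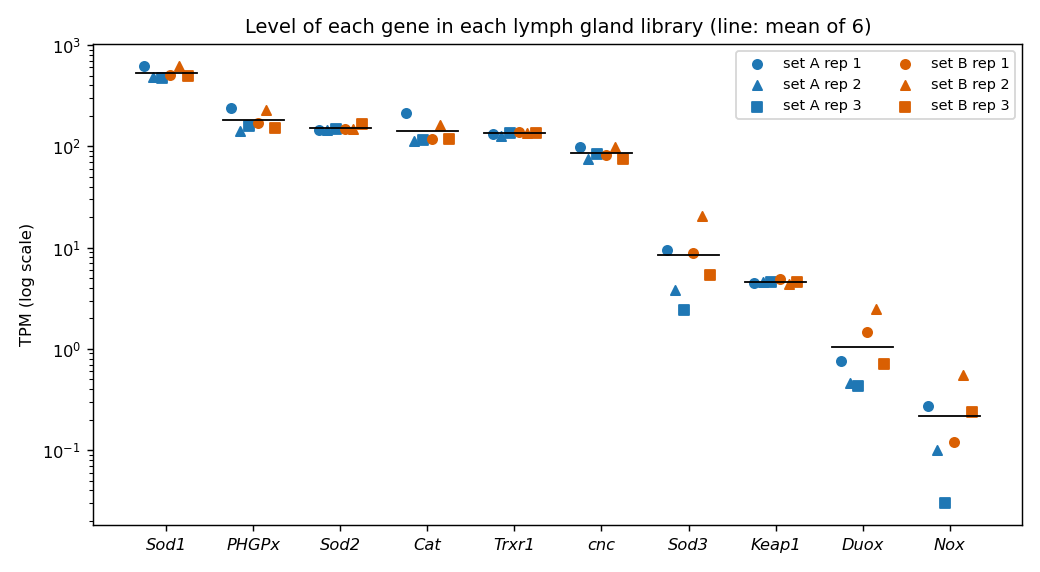
TPM of each gene in each of the 6 libraries on a log scale, in order of mean level, with blue for set A, orange for set B and a line at the mean of 6. Sod1 lay between 473 and 623 TPM, above every other gene shown, while Nox stayed at or below 0.55 TPM.

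The superoxide dismutases differed most among themselves. Sod1 (FBgn0003462) encodes the copper and zinc enzyme of the cytosol and lies on 3L at 11112281 to 11113740 (annotation release 115 on BDGP6.54, used for all positions). Its level was 623, 483 and 473 TPM in replicates 1, 2 and 3 of set A, and 508, 620 and 495 TPM in those of set B. Set A replicate 1 and set B replicate 2 were the high libraries, and the sets overlapped. With a mean of 534 ± 68.9 TPM, Sod1 ranked 225 among all genes and above 97.2% of the genes with a mean of at least 1 TPM.

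Sod2 (FBgn0010213, 2R at 16772785 to 16773915) encodes the manganese enzyme of mitochondria. It was at 143, 145 and 150 TPM (rounded from 149.5) in set A and at 149, 147 and 167 TPM in set B. Apart from set B replicate 3, which was highest, the libraries differed little, and the mean was 150.2 ± 8.78 TPM. Within a library, Sod1 stood above Sod2 by a ratio of TPM of 2.96 to 4.35, with a geometric mean of 3.54. The log2 of that ratio averaged 1.84 ± 0.245 over the 3 libraries of set A and 1.80 ± 0.258 over those of set B. That gap did not pass an exact permutation test, two-sided (p = 0.8, 0.9 after adjustment over 4 ratios), which cannot go below 0.1 with 3 libraries against 3.

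Sod3 (FBgn0033631, 2R at 11380347 to 11384114) encodes an extracellular copper and zinc enzyme. It was at 9.48, 3.77 and 2.42 TPM in set A and at 8.85, 20.6 and 5.41 TPM in set B. The highest library, set B replicate 2, held 8.50 times the level of the lowest, set A replicate 3. These values rest on 292 counts (95% exact Poisson interval 259 to 327) and 40 counts (28.6 to 54.5), so the gap is beyond counting error. Poisson intervals here cover counting error only. The mean was 8.42 ± 6.57 TPM, with 5.11 TPM over the 4 libraries left when set A replicate 1 and set B replicate 2 are taken out.

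Cat and PHGPx were the next scavengers. Cat (FBgn0000261, 3L at 18822604 to 18828188) encodes the catalase that splits hydrogen peroxide into water and oxygen. It was at 215 TPM in set A replicate 1 and at 163 TPM in set B replicate 2. The other libraries, set A replicates 2 and 3 and set B replicates 1 and 3, were at 113, 115, 118 and 119 TPM. The mean over all 6 was 140.4 ± 41.3 TPM, and it was 116 TPM without the 2 high libraries. The TPM ratio of Cat to Sod1 was 0.346 in set A replicate 1 and between 0.231 and 0.262 in the others. On the log2 scale this ratio averaged -1.89 ± 0.312 for set A and -2.03 ± 0.0936 for set B (exact permutation p = 0.6, two-sided, 0.9 adjusted over 4 ratios).

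PHGPx (FBgn0035438, 3L at 3326265 to 3328626) encodes a glutathione-peroxidase-like enzyme. Its level was 237, 143 and 160 TPM in set A and 171, 228 and 150.2 TPM in set B. Set A replicate 1 and set B replicate 2 were again the high pair, and the mean was 182 ± 40.7 TPM. Trxr1 (FBgn0020653, X at 8242528 to 8248033) encodes the thioredoxin reductase that, in flies, also stands in for the missing glutathione reductase. It was at 133, 127 and 134 TPM in set A and at 137, 137 and 136 TPM in set B. That is 134 ± 3.95 TPM, a coefficient of variation (SD over mean) of 2.95%, the lowest of the 10 genes. A stretch of 435 exonic bases of Trxr1 is shared with sni on the opposite strand, which was at 26.2 ± 1.64 TPM. The library kit keeps strand, but counting is not stated to use it.

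The oxidases were read from few counts. Duox (FBgn0283531, 2L at 2815970 to 2830248) encodes the dual oxidase, which makes hydrogen peroxide at membranes and is known for gut defence and cuticle crosslinking. It was at 0.75, 0.46 and 0.43 TPM in set A, from 87, 48 and 38 counts. In set B it was at 1.48, 2.48 and 0.71 TPM, from 132, 209 and 81 counts. The highest of set A lay just above the lowest of set B, so the sets overlapped. Nox (FBgn0085428, 2R at 16307269 to 16316485) encodes the other NADPH oxidase of the fly, which calcium activates. It had 29, 9 and 2 counts in set A and 9, 41 and 24 counts in set B. Set B replicate 2 was highest at 0.55 TPM (41 counts, interval 29.4 to 55.6) and set A replicate 3 lowest at 0.03 TPM (2 counts, interval 0.242 to 7.22). Nox shares 173 exonic bases with CG8060 on the opposite strand, itself at 6.36 ± 0.512 TPM. The Nox counts were whole numbers, and their deposited posterior SD was 0 in every library. With so few reads, whether any of them belong to CG8060 was not tested.

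Duox was above Nox in 6 of 6 libraries, by a TPM ratio of 2.78 to 14.3. The highest ratio, in set A replicate 3, rests on 2 counts of Nox and is thus poorly fixed. The log2 ratio averaged 2.51 ± 1.21 for set A and 2.45 ± 1.06 for set B (two-sided exact permutation p = 0.9, also after adjustment over 4 ratios). Adding 1 TPM to both values lowers the mean log2 ratio from 2.48 to 0.69, since both genes are below or near 1 TPM.

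The regulators were far apart in level. The cnc gene (FBgn0262975, 3R at 23185580 to 23226711) was at 98.8, 74.8 and 84.3 TPM in set A and at 82.6, 99.1 and 74.3 TPM in set B. Its high libraries were set B replicate 2 and set A replicate 1, and the mean was 85.6 ± 11.1 TPM. A stretch of 126 exonic bases is shared with Irk1 or CG46310 on the opposite strand, at 21.1 ± 3.93 and 9.50 ± 0.986 TPM. Keap1 (FBgn0038475, 3R at 17073942 to 17079945) encodes the adaptor that hands the cnc protein to the Cul3 ubiquitin ligase. It was at 4.46, 4.60 and 4.59 TPM in set A and at 4.88, 4.36 and 4.61 TPM in set B, which is 4.58 ± 0.176 TPM. Its coefficient of variation of 3.83% was below the 6.65% that counting error alone gives at its mean of 226 counts. The TPM of cnc exceeded that of Keap1 by 16.1 to 22.7 times. On the log2 scale the ratio averaged 4.23 ± 0.225 for set A and 4.20 ± 0.269 for set B (exact permutation p = 0.9, two-sided, also 0.9 adjusted over 4 ratios).

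The order of the 10 levels was examined within libraries, where both genes of a pair share the same preparation. All 45 pairs were compared by a two-sided exact sign-flip permutation test of log2(TPM + 1) over 6 libraries, which cannot go below 0.0313. For 41 pairs the order was the same in 6 of 6 libraries, with an adjusted p of 0.0343. The test covers spread between libraries and not the length correction behind TPM. It was not rerun on counts per kilobase, where close pairs may change order. The 4 remaining pairs were neighbours in the order. PHGPx was above Sod2 in 4 of 6 libraries (log2 difference 0.25 ± 0.354, adjusted permutation p = 0.201). Sod2 was above Cat in 4 of 6 (0.14 ± 0.418, adjusted permutation p = 0.447), and Cat above Trxr1 in 2 of 6 (0.02 ± 0.375, adjusted permutation p = 0.875). Sod3 was above Keap1 in 4 of 6 (0.49 ± 0.962, adjusted permutation p = 0.294). In TPM the order was thus Sod1 first, then PHGPx, Sod2, Cat and Trxr1 with neighbours that did not separate, then cnc, then Sod3 with Keap1, then Duox, and Nox last.

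**Figure D2:**
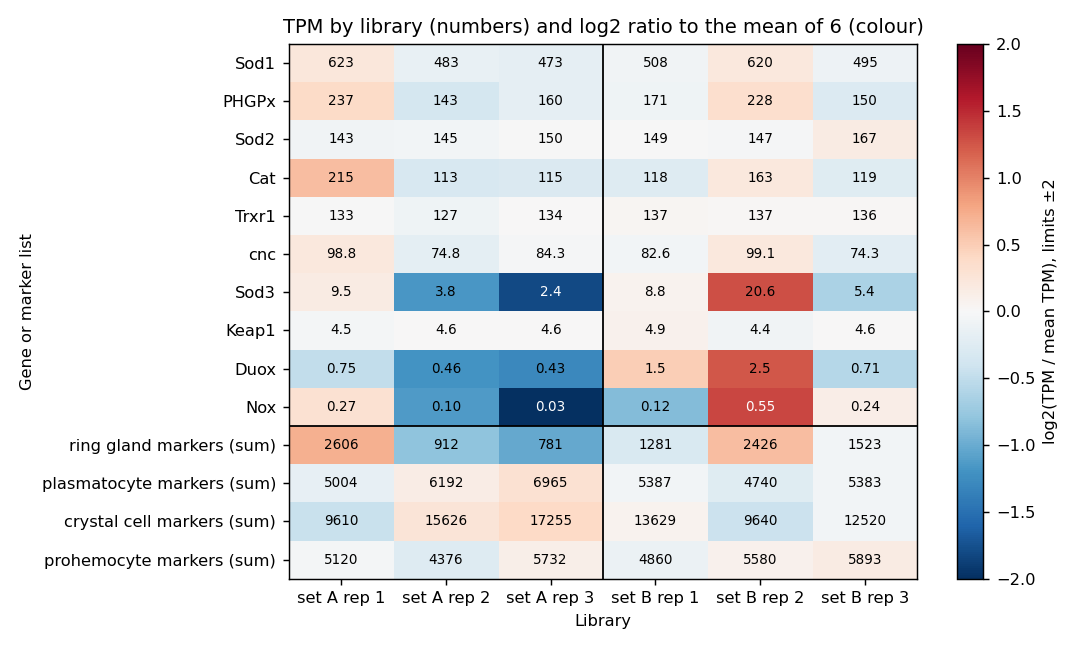
TPM of each gene in each library (numbers) above the summed TPM of 4 marker lists, with colour for the log2 ratio to the mean of the 6 libraries, cut at 2 in each direction. Sod1, PHGPx, Cat, cnc and Sod3 were highest in set A replicate 1 and set B replicate 2, where ring gland markers summed to 2606 and 2426 TPM, while Sod2, Trxr1 and Keap1 were nearly even.

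Sod1, Sod3, Cat, PHGPx and cnc, which are 5 of the 9 members with a mean of at least 1 TPM, had their highest levels in set A replicate 1 and set B replicate 2. Among all 8095 genes at that level, 24.5% had the same 2 libraries on top. This way of counting was chosen after the values were seen. Nox, below 1 TPM, had the same pair on top. Sod2, Trxr1, Duox and Keap1 had other pairs.

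The sums of some marker lists of other cells moved with this pattern. The summed ring gland level was 2606 TPM in set A replicate 1 and 2426 TPM in set B replicate 2, against 781 to 1523 TPM in the other libraries. Crystal cell markers summed to 9610 and 9640 TPM in those 2 libraries, against 12520 to 17255 TPM elsewhere. Plasmatocyte markers summed to 5004 and 4740 TPM, against 5383 to 6965 TPM elsewhere. Prohemocyte markers, at 5120 and 5580 TPM, lay inside the range of 4376 to 5893 TPM of the other 4. Within that list, et was lowest in those 2 libraries, at 311 and 375 TPM, and shg was highest, at 9.35 and 13.55 TPM. Tep4, Ance and dome did neither. The lists did not move as units. Among 8 plasmatocyte markers, 2 were highest in set A replicate 1 and set B replicate 2. They were eater, at 738 and 580 TPM, and crq, at 134 and 99.2 TPM. Of 7 ring gland markers with a mean of at least 1 TPM, 5 were highest in that pair, while Akh and jhamt were highest in set B replicate 3. The part of these markers in the levels of the scavengers was not tested.

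The median coefficient of variation of the 9 members with a mean of at least 1 TPM was 12.9%, beside 10.9% for all genes at that level, whose middle 80% span 5.21% to 48.2%. Set A replicate 1 and set B replicate 2 were also left out, a choice made after the data were seen. In them 5 of these 9 members were highest, so a fall for those was built in. Without them the median coefficient was 6.58% for the 9 members and 7.99% for the same 8095 genes. Among single genes it ranged from 2.95% for Trxr1 and 3.83% for Keap1, through 5.85% for Sod2, 12.9% for Sod1 and cnc, 22.4% for PHGPx and 29.4% for Cat, to 75.7% for Duox and 78.0% for Sod3. For Cat, counting error at its mean depth gives 1.41%, and for Sod3 8.57%.

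**Figure D3:**
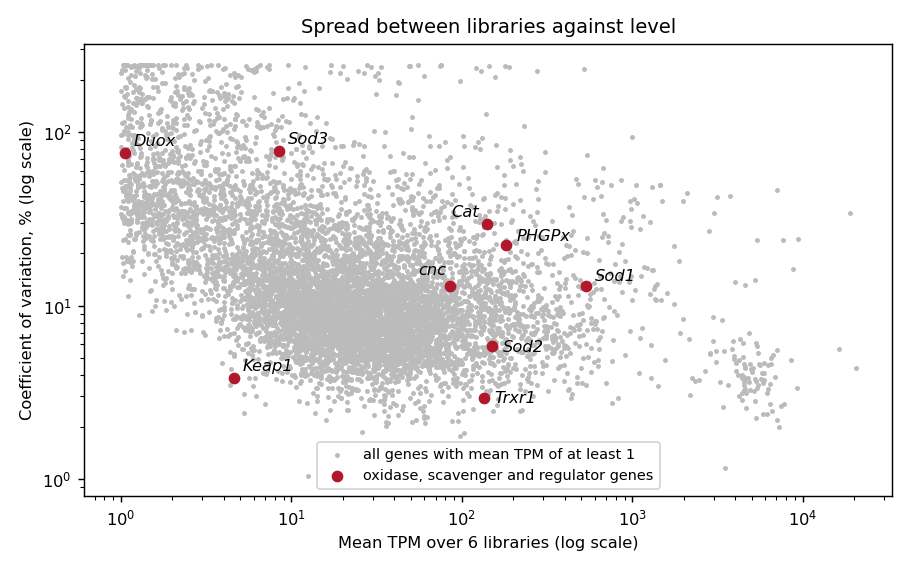
Coefficient of variation over the 6 libraries against mean TPM, both on log scales, for all 8095 genes with a mean of at least 1 TPM (grey) and the 9 members at that level (red). Trxr1 (2.95%) and Keap1 (3.83%) lie at the low edge, and Sod3 (78.0%) and Duox (75.7%) lie high.

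The sets were then compared, with changes given as set B over set A. The effect of the experimenter and that of any batch tied to the experimenter cannot be told apart. The test was edgeR's quasi-likelihood test with Benjamini-Hochberg adjustment over the 8491 genes tested. All 10 members were tested and 0 of 10 had an adjusted p under 0.05, where the share of all tested genes was 0%. At an unadjusted p under 0.05 there was 1 member, beside 4.16% of all genes. DESeq2 on the same genes called 0 of 10 members and 22 genes in all.

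The member with that p was Duox, at 0.547 ± 0.177 TPM for set A and 1.56 ± 0.887 TPM for set B, 3 libraries each. Its edgeR log2 change was 1.49 (SE 0.479), with an unadjusted p of 0.0208 and an adjusted p of 0.9997. Without set B replicate 2 the change was 0.99. Nox and Sod3 had changes of similar size and larger errors, 1.11 (SE 0.906) and 1.04 (SE 0.677), also with an edgeR adjusted p of 0.9997. The Sod3 change was 0.31 without set B replicate 2 and 1.79 without set A replicate 1. That of Nox was 0.39 without set B replicate 2 and 2.18 without set A replicate 1.

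The other 7 members had smaller changes and smaller errors. The edgeR log2 change was 0.02 (SE 0.139) for Sod1, 0.07 (SE 0.0874) for Sod2, 0.04 (SE 0.0579) for Trxr1 and 0.02 (SE 0.224) for PHGPx. It was -0.17 (SE 0.279) for Cat, -0.05 (SE 0.153) for cnc and -0.0026 (SE 0.108) for Keap1. Levels of the sets did not overlap for 1 member, Trxr1, whose set A libraries reached 134 TPM and whose set B libraries started at 136 TPM. Such a gap was found for 6.11% of all tested genes.

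**Figure D4:**
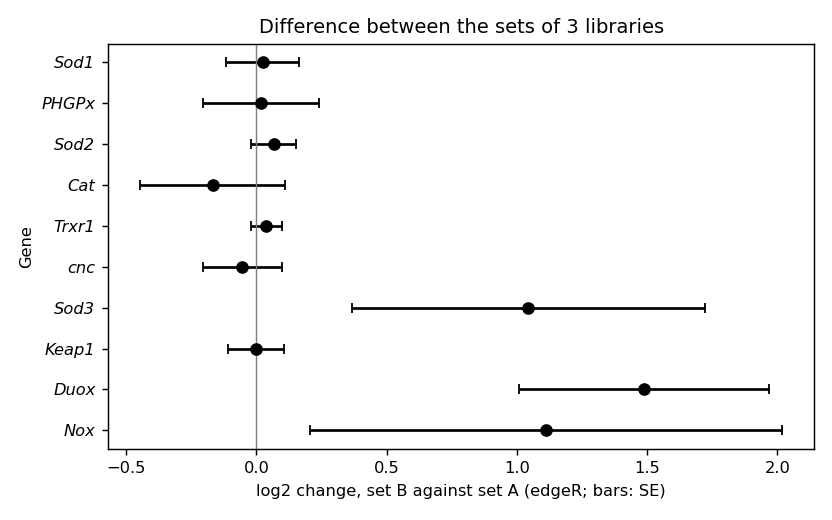
The edgeR log2 change of each member, set B against set A, with its standard error, from 3 libraries a set. Duox (1.49), Nox (1.11) and Sod3 (1.04) lie to the right with wide errors, and the other 7 lie within 0.17 of 0.

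Transcript lengths gave a view of which annotated forms the reads were assigned to. The deposited tables give a mean transcript length per gene, weighted by abundance. For Sod1 and Cat a single transcript is annotated. For Duox, 2 transcripts of 5285 and 5336 bases are annotated, 51 bases apart. The mean length of Duox was 5285 in all 3 libraries of set A, which places all of its reads on the shorter form. It was 5336 in replicates 1 and 3 of set B, which places them on the longer form, and 5324 in replicate 2. The sets did not overlap in this measure for Duox, 1 of the 8 members whose mean length varied. The same held for 9.26% of the 4838 tested genes with a varying mean length. The measure for Duox rests on 38 to 209 counts a library and on how reads were split between nearly equal forms. For cnc, 16 transcripts of 3477 to 6954 bases are annotated. Its mean length was between 4764 and 5127 bases and highest in set A replicate 1, and a mean cannot tell which of the 16 were present. For Trxr1 the mean length of 2028 to 2037 bases was close to the 2003 bases of its shortest form.

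Partners of the members and genes of related pathways were described from 5 lists with 52 genes, written with earlier results of these data known. Of these, 43 were tested between the sets and 0 had an adjusted edgeR p under 0.05 in either direction. At an unadjusted edgeR p under 0.05 there were 2 of 43, Prx6a and GstS1, near the share of 4.16% among all tested genes. The median log2 change lay between -0.13 for the NADPH supply list and 0.00 for the oxidase partners, beside -0.0045 over all genes tested.

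Among oxidase partners and peroxidases, 3 of 7 genes had at least 1 TPM in every library. Pxn, the secreted peroxidase peroxidasin, which is also on the plasmatocyte list, was at 1169 ± 195 TPM. Irc, an immune-regulated catalase, was at 160 ± 11.3 TPM, close to Cat. Ccs, the copper chaperone of Sod1, was at 27.1 ± 1.21 TPM. The level of mol, which encodes the maturation factor of Duox, was 0.985 ± 0.546 TPM.

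Of the thioredoxins and peroxiredoxins, 11 of 14 were at 1 TPM or more in every library. The highest were the peroxiredoxin Prx2 at 464 ± 97.4 TPM, the thioredoxin Trx2 at 259 ± 45.1 TPM and the peroxiredoxin Prx5 at 172 ± 20.2 TPM. Prx5 shares exonic bases with CG7215 on the same strand, so its value is uncertain. Prx2 was at 327 TPM in set A replicate 1 and 351 TPM in set B replicate 2, below the 509 to 547 TPM of the other libraries. Trx2 was at 204 and 206 TPM in those 2 libraries and at 258 to 308 TPM in the others. These are the libraries in which Cat and PHGPx were highest.

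In the glutathione list, 11 of 13 genes reached 1 TPM in every library. GstD1, a glutathione transferase known as a target of cnc, was at 5269 ± 739 TPM, above every member. GstO3 was at 675 ± 228 TPM and GstE1 at 174 ± 26.6 TPM. GstD1 was highest in set A replicate 1 (6430 TPM) and set B replicate 2 (5811 TPM), with 4450 to 5158 TPM elsewhere. GstO3 followed the same order more steeply, at 1028 and 899 TPM against 505 to 554 TPM.

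The list named for partners and targets of Keap1 and cnc also holds genes of JNK and FoxO signalling and of mitochondrial upkeep. Of its genes, 11 of 12 were at 1 TPM or more throughout. Roc1a, the RING subunit of cullin ligases, was at 198 ± 13.2 TPM. The small Maf partner of cnc, maf-S, was at 88.0 ± 6.16 TPM, near the level of cnc, and dj-1beta, a relative of human DJ-1 that guards against oxidation, was at 86.1 ± 4.11 TPM. All 6 genes on the NADPH supply list reached 1 TPM in every library. The malic enzyme gene Men led at 987 ± 281 TPM, followed by Idh at 307 ± 18.1 TPM and Mdh1 at 233 ± 30.2 TPM. Mdh1 encodes a malate dehydrogenase that works with NAD, so it does not itself make NADPH. Men was at 670 and 675 TPM in set A replicate 1 and set B replicate 2 and at 923 to 1330 TPM elsewhere.

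Over all 5 lists, 11 of the 43 genes with a mean of at least 1 TPM were highest in set A replicate 1 and set B replicate 2, near the 24.5% of all genes. Another 13 of 43 were lowest in those libraries, beside 20.8% of all genes, and they included Prx2, Trx2, Irc, Pxn and Men. Of the 9 members at that level, Keap1 alone was lowest there, within its counting error.

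The genes whose profile was most like those of Sod3, Duox and Cat, the 3 members with the largest SD of log2(TPM + 1), were sought among 5714 genes with a mean of at least 10 TPM. Nox had the largest coefficient of variation, 85.0%, but little spread on that scale, since all of its levels are below 1 TPM. Likeness was the root mean square difference of log2(TPM + 1) over 6 libraries, after each gene was centred on its mean. The nearest of 5714 genes lies below the median by selection, so the medians below give scale only. For Sod3 the nearest were Inx3 (0.214) and Msr-110 (0.268), where the median gene lay at 0.860. For Duox they were Fas1 (0.138) and CG34417 (0.144), against a median of 0.463. Adding 1 TPM shrinks the spread of Duox, at 0.43 to 2.48 TPM, more than that of Fas1, at 9.63 to 21.4 TPM. Their relative changes are thus less alike than these distances. For Cat they were Dip-C (0.0393) and Mtp (0.0471), against 0.355. Dip-C, a dipeptidase gene, was at 89.8 and 69.4 TPM in set A replicate 1 and set B replicate 2, and at 47.6 to 52.7 TPM in the other libraries. Mtp, which encodes the microsomal triacylglycerol transfer protein of lipoprotein assembly, was at 59.4 and 45.3 TPM against 30.4 to 32.8 TPM.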

How the data were processed

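The authors deposited a gene table from RSEM for each of 6 libraries, per the file headers. The expected counts the authors deposited are reads per gene as estimated by RSEM, not normalized. The deposited TPM values correct for effective transcript length and sum to the same total in each library, and the deposited FPKM values are scaled by length and library size. The tables also give a mean transcript length and a posterior SD of each count, which was 0 for all 10 members. The submitters' processing notes name STAR 2.7.1a, RSEM 1.2.28, Trimmomatic 0.35, CASAVA 1.8.2 and the BDGP6 build. The annotation release used by the authors and the use of strand are not given in the sources used here.

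Levels are TPM as deposited. Expected counts were rounded to whole numbers and the sets were compared in edgeR 4.0.16 (R 4.3.3) with filterByExpr, TMM factors and no block. The test was run on simulated data before use. It called 79 of 100 genes changed 4-fold, 43 of 100 changed 2-fold and 8 unchanged genes, so a 2-fold change can be missed. DESeq2 1.42.0, other normalization, no filter, a replicate block, another pseudocount and left-out libraries were alternatives. Ratios were compared by exact permutation. Python 3.11.15, numpy 2.4.6, pandas 2.3.3, scipy 1.17.1 and matplotlib 3.10.9 were used. No 2 libraries agreed within sampling noise, with a chi-square per degree of freedom of at least 20.1.

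The members, lists, named genes and tests were chosen with earlier results of these data known. Named genes are the 10 members, the 3 highest of each partner list with any past the threshold, and the 2 nearest profiles of the 3 members with the largest SD of log2(TPM + 1). Genes named outside this rule were chosen after their values were seen. They are Prx6a, GstS1, mol, single marker genes, the opposite-strand neighbours and those in the closing section. Of 10 ring gland markers, 8 were used, since phm did not match a symbol in the annotation and nvd had no row.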

Additional observations from a re-analysis of the deposited data

Results flagged for a closer look

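Each of 22 values over the 6 libraries (levels, mean transcript lengths and ratios of the members) was examined for a library whose gap to its nearest neighbour exceeds Dixon's critical value as a share of the whole range. Such a gap was found for 3, where chance gives about 1 in 20, or 1.1 of 22. Sod2 was at 167 TPM in set B replicate 3, with the next library at 149.5 TPM, a gap of 0.743 of the range. Muscle markers were also highest in that library, and their part in the value was not tested. The log2 ratio of Cat to Sod1 was -1.53 in set A replicate 1, with the next at -1.93, a gap of 0.686. The sum of ring gland markers was highest in the same library, and their part was not tested. The mean transcript length of Nox was 4839 bases in set A replicate 1, with the next at 4706 bases, a gap of 0.655, and it rests on 29 counts.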

How the results depend on the processing

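No member and no partner gene passed between sets under any alternative run. The count over all genes, 0 with edgeR, was 22 with DESeq2 (409 at an unadjusted p under 0.05), and 0 with the replicate block. Deviations of same-numbered libraries correlated at -0.17, -0.28 and 0.37, and those of set A replicate 1 and set B replicate 2 at 0.56. Such values cannot show whether same-numbered libraries were prepared together. Leaving out each library in turn gave log2 changes of -0.081 to 0.15 for Sod1, -0.027 to 0.11 for Sod2, -0.33 to 0.19 for Cat, -0.17 to 0.25 for PHGPx, -0.035 to 0.045 for Keap1 and -0.19 to 0.064 for cnc, so their direction is not fixed. The difference between sets of the log2 ratios ranged from -0.17 to 0.10 for Sod1 to Sod2, -0.25 to 0.037 for Cat to Sod1, -0.64 to 0.62 for Duox to Nox and -0.19 to 0.088 for cnc to Keap1. Counts called between sets stayed at 0 to 0. Of the ordered pairs 0 to 0 passed, since 5 libraries allow no p below 0.0625. Without set A replicate 1 and set B replicate 2 together, chosen after seeing the data, the change was 0.029 for Cat and 0.017 for Keap1, both reversed, and the median coefficient of variation was 6.58%, beside 7.99% for all genes. With 1 TPM added, the log2 ratio was 0.69 for Duox to Nox, with a reversed set difference of 0.48, and 3.95 for cnc to Keap1. With counts per kilobase of full length, Cat to Sod1 was -1.70. Depth limits Nox and Duox most.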

Other observations

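Several further redox genes had profiles that are given here as values. Gclc, the catalytic subunit of the enzyme that starts glutathione synthesis, was at 63.5 TPM in set A replicate 1 and 35.5 TPM in set B replicate 2, and at 9.88 to 14.6 TPM in the other 4 libraries. Its partner subunit Gclm was even, at 37.5 ± 1.39 TPM (SD, n = 6). Both were named after their values were seen.

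Trxr2, a second thioredoxin reductase gene, had 0 counts in all 6 libraries, which allows up to 3 counts in each. The oocyte thioredoxin gene dhd and the peroxidase-like gene Gpxl were also at 0 throughout. Gss1 and Gss2, near-identical glutathione synthetase genes, were listed at the same level of 45.9 ± 4.64 TPM, so the split of reads between them is uncertain.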
